A study of Mus musculus with 3 samples.

Results

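The genes described here form the sterol pathway of Ba/F3, a mouse haematopoietic cell line whose growth depends on the cytokine interleukin-3 (IL-3). The set holds 30 genes chosen by name for their function: 18 enzymes that lead from acetyl-CoA to cholesterol, 6 genes of its control, and 6 genes of sterol transport, storage and efflux. All 30 were found among the 55214 genes that could be joined across the samples. The study sequenced polyadenylated RNA of 3 separate Ba/F3 cultures, each grown in RPMI medium with 10% fetal calf serum, penicillin-streptomycin and 0.2 ng/mL recombinant murine IL-3. The cultures form 1 group, with no difference in genotype, treatment or time between them in the labels, so there is no contrast between conditions, and the values below describe levels and the spread between cultures. The study as a whole concerns the killing of tumour cells by neutrophils with IgA antibodies.

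Cells make cholesterol by joining acetyl-CoA units into mevalonate, turning mevalonate into farnesyl diphosphate, joining farnesyl units into squalene, and closing squalene into lanosterol, which is then trimmed to cholesterol. The supply is held level by SREBPs, membrane-bound transcription factors that are escorted by SCAP from the endoplasmic reticulum to the Golgi when sterols are scarce, and are cleaved there into active factors. INSIG proteins hold SCAP back when sterols are plentiful. Sterol taken up with lipoproteins leaves lysosomes through NPC1 and NPC2, surplus is stored as esters or exported by ABC transporters, and serum in a culture medium is a source of such lipoproteins.

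All levels are CPM, the reads of a gene scaled to the read total of its culture, or TPM, which also divide by gene length and serve to compare different genes. The gene counts summed to between 32044889 and 37180883 reads, so a single read was worth 0.0269 to 0.0312 CPM. A gene with no read could still have up to 0.0936, 0.0885 and 0.0807 CPM in cultures 1, 2 and 3 (3 reads, counting error only). Of the genes that mark Ba/F3 as an IL-3 dependent line, Csf2rb, the shared beta chain of the IL-3 receptor, had 721 ± 21.7 CPM (SD, n = 3). Il3ra, the alpha chain, had 28.2, 27.3 and 38.7 CPM, highest in culture 3. Of 11 Ba/F3 and pro-B markers, 6 were detected, which here means at least 1 CPM in every culture; the B lineage markers Ebf1 and Igll1 had no read in any culture, and Pax5 and Vpreb1 had mean levels of 0.0758 and 0.137 CPM. Of 5 macrophage markers, Cd68, Adgre1 and Csf1r were detected and Mertk and C1qa had no read, and the summed level of the list was 115 to 118 CPM. None of 3 fibroblast markers was detected. The part of other cell types in the sterol values was not tested, and in bulk RNA fewer cells with a transcript and less transcript per cell cannot be told apart.

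Promoters are shown first because many members share a short sequence there. Promoter sequences were read from RefSeq on GRCm38.p6 for 24 of the 30 genes; Fdps, Fdft1, Sqle, Npc1, Stard4 and Abcg1 had no entry in the table used. Each window holds the 250 bases before the RefSeq start, 5′ to 3′ on the gene's strand, so where the GENCODE model starts earlier the window reaches into it, as for Acat2 and Srebf2. In the 5 windows below, capitals mark CCAAT (or ATTGG, the same letters on the other strand) and the core of the sterol regulatory element that SREBPs bind, searched as TCACNCCAC on both strands. Mvk is shown because its window held the most CCAAT matches of the set, Hmgcs1 because it alone also held the sterol element core, Nsdhl as a post-lanosterol enzyme, Srebf2 as the SREBP gene with a single window, and Acat2 as a window without a match.
Acat2, chr17:12960726-12960975, minus strand: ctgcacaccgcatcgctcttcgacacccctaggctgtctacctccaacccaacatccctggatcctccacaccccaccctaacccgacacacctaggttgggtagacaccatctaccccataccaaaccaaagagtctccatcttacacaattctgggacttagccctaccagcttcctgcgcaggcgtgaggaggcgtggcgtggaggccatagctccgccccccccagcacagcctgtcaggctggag
Hmgcs1, chr13:119690101-119690350, plus strand: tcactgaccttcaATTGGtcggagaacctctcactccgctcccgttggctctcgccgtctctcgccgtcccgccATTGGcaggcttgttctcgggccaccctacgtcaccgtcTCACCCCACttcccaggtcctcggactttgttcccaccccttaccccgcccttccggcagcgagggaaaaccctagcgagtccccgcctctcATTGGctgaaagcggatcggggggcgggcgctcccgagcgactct
Mvk, chr5:114444019-114444268, plus strand: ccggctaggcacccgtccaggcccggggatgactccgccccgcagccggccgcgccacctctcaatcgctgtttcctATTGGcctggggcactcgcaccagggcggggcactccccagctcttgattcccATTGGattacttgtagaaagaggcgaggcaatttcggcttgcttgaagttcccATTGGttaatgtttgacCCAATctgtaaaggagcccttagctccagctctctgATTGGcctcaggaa
Nsdhl, chrX:72918271-72918520, plus strand: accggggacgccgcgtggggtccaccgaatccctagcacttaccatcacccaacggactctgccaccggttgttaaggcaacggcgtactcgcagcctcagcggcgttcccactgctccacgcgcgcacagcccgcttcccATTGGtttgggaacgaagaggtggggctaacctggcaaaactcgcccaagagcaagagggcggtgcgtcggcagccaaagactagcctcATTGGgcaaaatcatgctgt
Srebf2, chr15:82147019-82147268, plus strand: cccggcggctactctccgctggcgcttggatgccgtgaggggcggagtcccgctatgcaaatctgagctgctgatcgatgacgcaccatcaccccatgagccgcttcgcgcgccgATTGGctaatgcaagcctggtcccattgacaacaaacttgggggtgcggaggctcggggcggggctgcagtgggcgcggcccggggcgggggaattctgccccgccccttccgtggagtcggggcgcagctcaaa

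CCAAT on either strand, the letters bound by the factor NF-Y, was present before 21 of the 24 genes (87.5%), against 37.5% of 27025 genes with an entry and 41.3% of 8397 detected genes. Some genes have several windows, which gives more chances of a match. Among genes with a single window the letters were present in 17 of 19 members (89.5%), against 34.7% of all genes and 38.0% of detected genes. At least 2 matches were present in 12 of the 24 (50.0%), against 11.5% and 16.1%. By role, 14 of 15 synthesis enzymes, 5 of 6 control genes and 2 of 3 transport genes held the letters, and the genes without them were Acat2, Scap and Abca1.

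Mvk held 5 CCAAT matches, the farthest at 173 to 169 bases and the nearest at 14 to 10 bases before the start. Hmgcs1 held 3, at 237 to 233, 176 to 172 and 45 to 41 bases, with the sterol element core between them at 137 to 129 bases. Nsdhl held 2, at 109 to 105 and 20 to 16 bases, and Srebf2 held 1, at 135 to 131 bases. TCACNCCAC was found before Hmgcs1 and no other member, against 1.22% of all genes. A natural sterol element can differ from these letters, so the count says only that they are not in the other windows.

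GGGCGG on either strand, the GC box bound by SP1-like factors, was present before 22 of the 24 genes (91.7%), against 35.4% of all genes and 64.4% of detected genes. CACGTG, the palindromic E-box, was present before 6 of the 24, against 6.86% and 10.1%. Members with the E-box were Hsd17b7, Sc5d, Dhcr7, Scap, Insig1 and Abca1, so Scap and Abca1, which lacked CCAAT, both had it. These shares describe letters in windows and no binding was measured.

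All 30 genes were detected in every culture, where 19.9% of all 55214 genes and 45.9% of 21965 protein-coding genes were. The median member had 66.2 CPM, against 39.7 CPM over all detected genes. Corrected for the length of all annotated exons, the median member had 66.8 TPM, and by the length of the longest coding transcript 56.0 TPM. Both lie above the median of all detected genes, which was 30.1 TPM on both lengths.

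**Figure D1:**
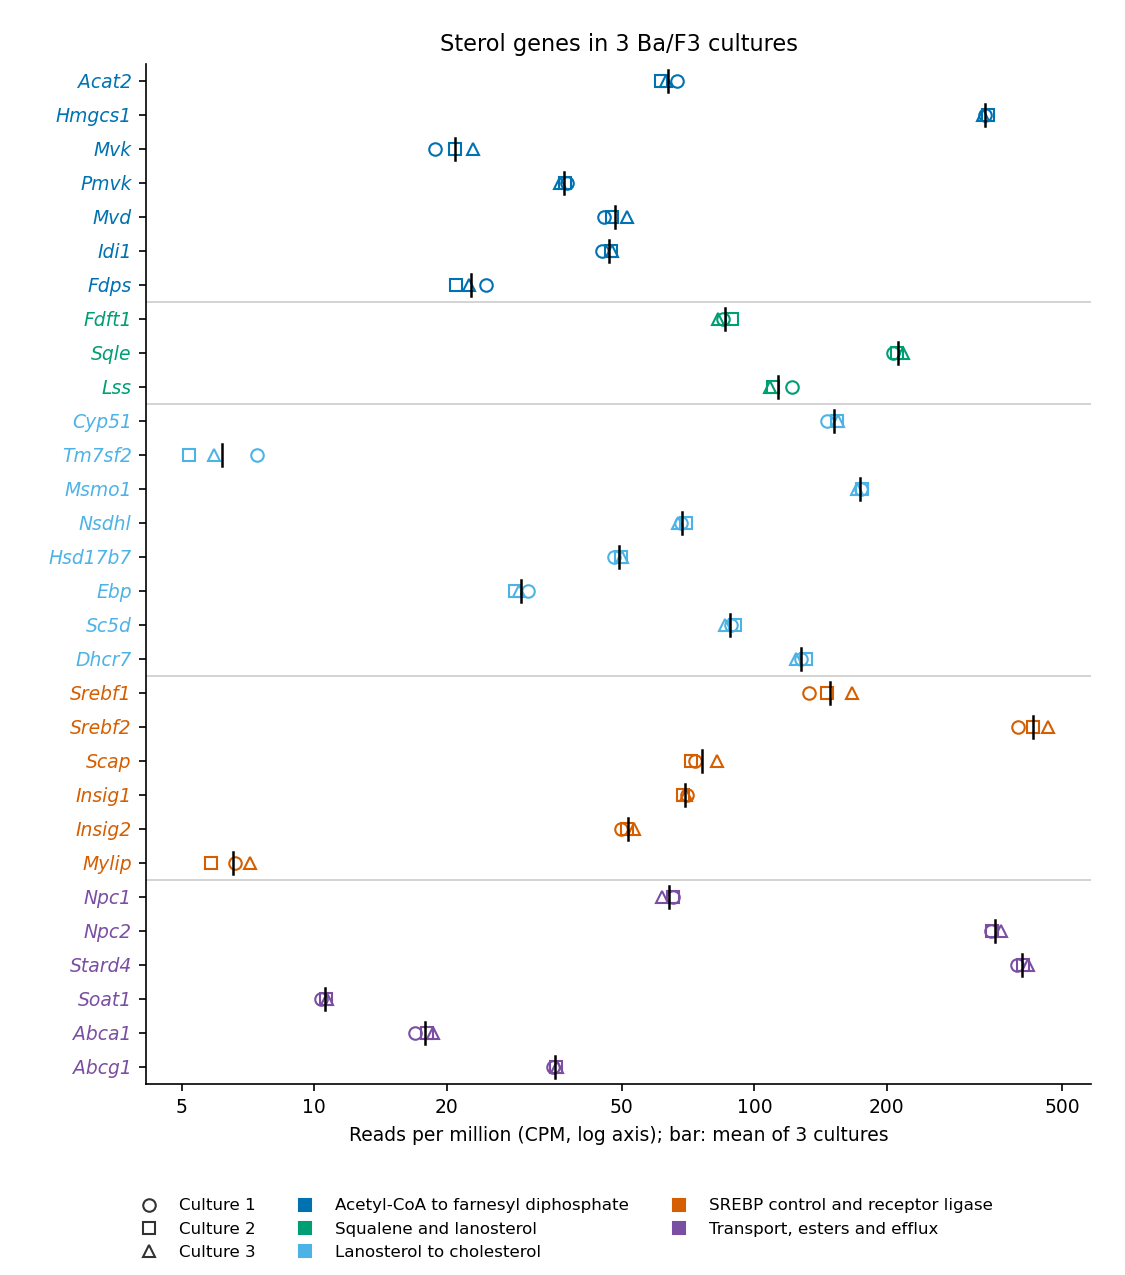
Level of each sterol gene in CPM (log axis) in cultures 1 (circle), 2 (square) and 3 (triangle), with a black bar at the mean of the 3 cultures; colours give the step of the pathway. The genes span from Tm7sf2 at 6.17 CPM to Srebf2 at 431 CPM, and for most genes the 3 cultures lie close together on this axis.

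The path from acetyl-CoA to farnesyl diphosphate was uneven. Hmgcs1, the cytosolic HMG-CoA synthase, had 335, 340 and 330 CPM in cultures 1, 2 and 3, and its level per length, 254 ± 5.12 TPM (SD, n = 3), was above 94.8% of detected genes. The kinase that acts on mevalonate, Mvk, had 18.8, 20.8 and 22.9 CPM. Culture 1 was lowest and culture 3 highest for Mvk, while the Hmgcs1 values differed by no more than a factor of 1.03. Per length, Hmgcs1 stood 9.42 ± 0.99 times above Mvk, and 7.75 ± 0.81 times by the longest transcript. This gene pair thus held both the highest enzyme of the mevalonate group and, by the longest transcript, its lowest.

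Acat2, the cytosolic thiolase that starts the path, had 66.8, 61.3 and 63.1 CPM. Pmvk, the next kinase after Mvk, had 37.5, 37.2 and 36.1 CPM, and Mvd, which makes isopentenyl diphosphate, had 45.6, 47.6 and 51.3 CPM. Acat2 was highest in culture 1, Pmvk was nearly level, and Mvd was highest in culture 3. Idi1, the isomerase of isopentenyl diphosphate, had 45.2, 47.3 and 47.4 CPM, with culture 1 lowest. Fdps, which joins the units into farnesyl diphosphate, had 24.6, 21.0 and 22.5 CPM, with culture 1 highest. By exons the order of TPM was Hmgcs1 at 254, Mvd at 90.1, Acat2 at 87.2, Pmvk at 75.0, Idi1 at 46.3, Mvk at 27.1 and Fdps at 18.8.

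Several of these counts share sequence with other genes, which matters for reads of 50 bases. Of the 50-base words in the longest Fdps transcript, 86.4% also occur on the same strand of other annotated genes. The largest share, 77.3%, lies in Gm43738, a protein-coding model that overlaps Fdps on the same strand and had no read in any culture, and 40.1% lie in the pseudogene Gm3571, at 0.298 ± 0.0858 CPM. The level of Fdps is therefore uncertain, and its length depends on the model: 18.8 TPM by exons and 38.8 TPM by the longest transcript. For Acat2, 45.9% of words are shared with its near-identical copy Acat3, which had 0.187, 0.0885 and 0.108 CPM. A further 13.2% occur on the opposite strand of Tcp1, at 563 ± 4.34 CPM. For Idi1, 21.3% of words are shared with the pseudogene Gm13502, at 0.721 ± 0.261 CPM, and the related gene Idi2 had 0.165 ± 0.0617 CPM. How reads with several matches, or reads on the opposite strand, were counted is not given in the sources used here.

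Squalene and lanosterol are made by 3 enzymes. Fdft1, squalene synthase, had 84.9, 88.9 and 82.8 CPM, with culture 2 highest. Sqle, squalene epoxidase, had 207, 211 and 218 CPM, lowest in culture 1 and highest in culture 3. Lss, lanosterol synthase, had 122, 110 and 108 CPM, with culture 1 above the others. Sqle and Lss thus ran in opposite orders across the cultures. Per length, Sqle stood at 133 ± 2.92 TPM, Fdft1 at 70.4 ± 2.95 TPM and Lss at 36.6 ± 2.50 TPM. Sqle was 3.65 ± 0.32 times Lss by exons and 3.17 ± 0.28 times by the longest transcript, so this order held on both lengths. The order of Fdft1 and Lss did not, since by the longest transcript Fdft1 had 54.6 TPM and Lss 57.3 TPM with overlapping cultures. Fdft1 overlaps Ctsb, a cathepsin gene on the opposite strand at 275 ± 7.64 CPM, and 19.9% of its words lie there.

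The 8 enzymes after lanosterol included high members and 1 near the low end. Msmo1, the sterol C4-methyl oxidase, had 174, 176 and 171 CPM. Cyp51, the lanosterol demethylase, had 146, 154 and 155 CPM, with culture 1 lowest. Dhcr7, the last reductase of the path, had 128, 131 and 125 CPM. Msmo1 and Dhcr7 were highest in culture 2 and lowest in culture 3. Sc5d, the lathosterol desaturase, had 88.6, 90.3 and 85.8 CPM. Nsdhl, which removes the C4 carboxyl group, had 68.2, 70.0 and 67.1 CPM. Sc5d and Nsdhl were also highest in culture 2 and lowest in culture 3, and none of these 4 genes was called by the test of counting noise given below. Hsd17b7, a keto reductase, had 47.9, 49.9 and 50.1 CPM, and Ebp, the sterol isomerase, had 30.6, 28.6 and 29.1 CPM.

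Tm7sf2, a sterol C14 reductase, was the lowest of the enzymes per length. It had 7.40, 5.19 and 5.92 CPM from 237, 176 and 220 reads. Culture 1 was highest, and the ratio of highest to lowest culture, 1.42, was the largest of the 30 genes. Per length it had 4.88 ± 0.889 TPM, and Cyp51, which acts just before it, was 25.1 ± 5.06 times higher. By the longest transcript that ratio was 9.61 ± 1.93. Tm7sf2 overlaps Vps51 on the same strand over 532 bases, and Vps51 had 14.5 ± 1.41 CPM. Of the 50-base words in the longest Tm7sf2 transcript, 0% occur in other annotated genes on either strand. Reads in the overlap that lie outside that transcript cannot be assigned to either gene.

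Among the control genes, Srebf2, the SREBP that mainly drives sterol synthesis, had the most reads of the set. Srebf2 (ENSMUSG00000022463, GRCm38 chr15:82147181-82205379, plus strand) had 397, 429 and 466 CPM. Srebf1 (ENSMUSG00000020538, GRCm38 chr11:60199089-60222581, minus strand), whose product mainly drives fatty acid synthesis, had 133, 146 and 167 CPM. Both were lowest in culture 1 and highest in culture 3, with culture 2 between. Per length Srebf2 had 209 ± 15.5 TPM and Srebf1 91.8 ± 10.1 TPM. Their ratio in TPM was 2.35, 2.30 and 2.19 in cultures 1, 2 and 3, so it varied less than either gene.

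Scap, the escort of SREBPs, had 73.4, 71.8 and 82.4 CPM, with culture 3 above the others. Insig1, the retention protein that is itself an SREBP target, had 70.2, 68.8 and 69.8 CPM. Insig2, the other retention protein, had 49.7, 51.4 and 53.3 CPM. The ratio of highest to lowest culture was 1.02 for Insig1, 1.07 for Insig2 and 1.15 for Scap. In TPM Insig1 was 1.52 ± 0.058 times Insig2, and Scap had 0.453 ± 0.032 times the level of Insig1, or 0.695 ± 0.050 by the longest transcript. Mylip, a ubiquitin ligase induced by the sterol-sensing LXR receptors that degrades lipoprotein receptors, had 6.58, 5.81 and 7.15 CPM. It lay near the low end of the set with 7.01 ± 0.683 TPM, and it was not called by the test of counting noise given below.

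Of the transport genes, Npc2 and Stard4 were among the highest members per length. Npc2, which binds cholesterol in the lysosome, had 345, 348 and 363 CPM. Stard4, a soluble carrier that moves sterol between membranes, had 394, 408 and 418 CPM. Both were lowest in culture 1 and highest in culture 3. Npc1, the membrane partner that passes cholesterol out of the lysosome, had 65.2, 65.2 and 61.7 CPM. Per length Npc2 had 225 ± 5.01 TPM against 19.7 ± 0.740 TPM for Npc1, a ratio of 11.4 ± 0.69, or 8.71 ± 0.53 by the longest transcript. Npc1 overlaps Rmc1, on the opposite strand at 40.4 ± 2.19 CPM, by 967 bases.

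Storage and efflux genes were low. Soat1, which esterifies cholesterol in the endoplasmic reticulum, had 10.4, 10.6 and 10.7 CPM, and at 3.75 ± 0.055 TPM it was the lowest member per length. Abca1, the exporter to lipid-poor apolipoproteins, had 16.9, 18.0 and 18.6 CPM, and Abcg1, the exporter to lipoprotein particles, had 34.9, 35.4 and 35.6 CPM. None of the 3 genes was called by that test. Abcg1 stood 2.81 ± 0.10 times above Abca1 in TPM, and 3.48 ± 0.13 times by the longest transcript.

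**Figure D2:**
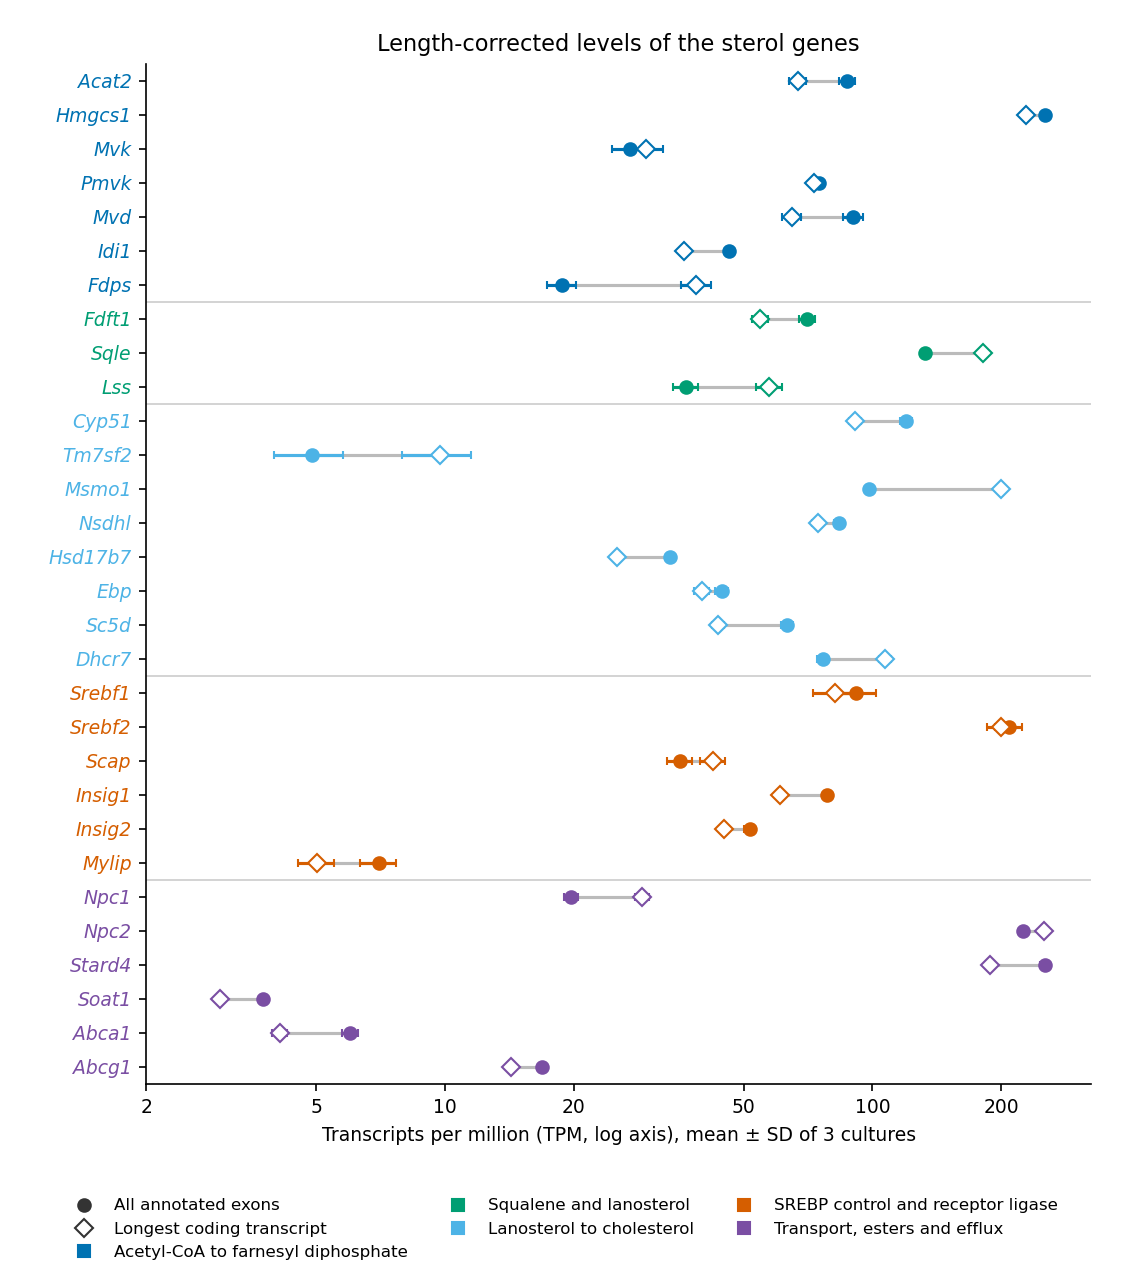
Length-corrected level of each sterol gene in TPM (log axis), as mean ± SD of 3 cultures, by the length of all annotated exons (filled circles) and of the longest coding transcript (open diamonds); a grey line joins both values. Hmgcs1 had 254 and 228 TPM and Soat1 3.75 and 2.97 TPM, and the length of the line shows where the choice of length moves a gene, as for Fdps, Tm7sf2 and Msmo1.

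Ordered by TPM over all exons, the set was led by Hmgcs1, Stard4, Npc2, Srebf2, Sqle and Cyp51, and ended with Abcg1, Mylip, Abca1, Tm7sf2 and Soat1. Of the 29 pairs of neighbours in that order, 14 had cultures that overlapped. Hmgcs1 at 254 TPM and Stard4 at 253 TPM overlapped, as did Npc2 and Srebf2, whereas Srebf2 lay above Sqle in every culture. With the longest transcript, Npc2, Hmgcs1, Msmo1, Srebf2, Stard4 and Sqle led, and 16 of 29 neighbouring pairs overlapped. Soat1, Abca1 and Mylip were the lowest on that scale, at 2.97, 4.10 and 5.01 TPM. Msmo1 moved most among the leading genes, from 98.3 TPM by exons to 200 TPM by its longest transcript.

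Differences between cultures were set against the counting noise of Poisson reads with a chi-square test, run on the 13142 genes that averaged 10 or more reads, with Benjamini-Hochberg adjustment over all of them. The test compares these libraries and not conditions. It called 12 of the 30 members (40.0%), against 32.7% of all genes tested and 40.9% of the 8828 genes with at least 10 CPM, so members differed about as often as other genes of their level. The 12 were Mvk, Mvd, Fdps, Sqle, Lss, Cyp51, Tm7sf2, Srebf1, Srebf2, Scap, Npc2 and Stard4. By role these are 7 of 18 enzymes, 3 of 6 control genes and 2 of 6 transport genes. A highest culture at least 25% above the lowest was seen in 1 of 28 members with at least 10 CPM, Srebf1 with a ratio of 1.26, and in 8.50% of the 8828 such genes. On the rows as deposited no member reached it, since Srebf1 then had 151 CPM in culture 3. The median ratio of these 28 was 1.06, against 1.08 over all such genes.

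Srebf2 and Srebf1 had the smallest adjusted p-values of the set, 2.31e-39 and 1.08e-28 by the chi-square test, and both were called under every alternative tried, including without each culture. Srebf2 was 1.17 times and Srebf1 1.26 times higher in culture 3 than in culture 1. Lss followed with an adjusted p of 8.08e-07 by the same test and Scap with 2.15e-06. Their patterns rested on 1 culture each: without culture 1 the adjusted p of Lss was 0.726, and without culture 3 that of Scap was 0.679. Stard4 had an adjusted p of 4.98e-05 in the chi-square test, and 0.165 without culture 1. Npc2 had 3.56e-04 in that test, and 0.732 without culture 3.

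The other 6 calls were nearer to the threshold. Tm7sf2 had an adjusted p of 0.00538 in the chi-square test, with 0.490 without culture 1 and 0.0559 without culture 2. For Mvk the test gave 0.00454, with 0.263 without culture 1 and 0.197 without culture 3, and for Mvd it gave 0.00968, with 0.149 and 0.475. Both genes had culture 2 between the other cultures. Cyp51 had an adjusted p of 0.0141 and lost the call without culture 1, at 0.954. Sqle had 0.0199, with 0.247 without culture 1 and 0.416 without culture 3. Fdps had 0.0295, with 0.453 without culture 1, 0.180 without culture 2, and 0.0508 and 0.0632 with scaling by trimmed means and by median ratios.

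**Figure D3:**
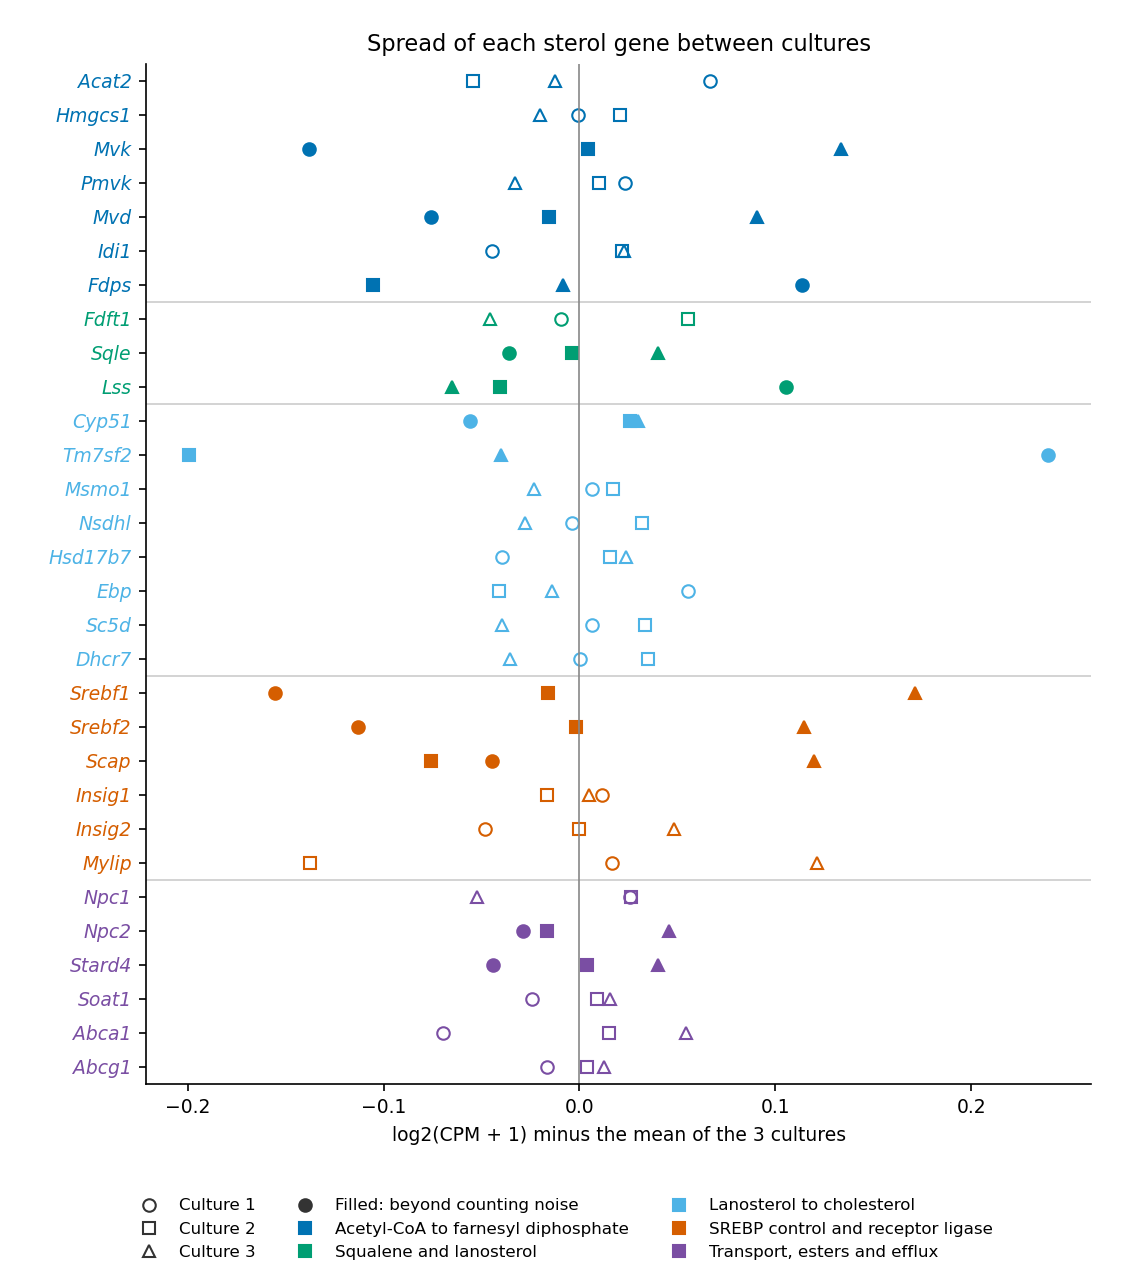
Deviation of each culture from the mean of the 3 cultures, log2(CPM + 1), for each sterol gene; filled symbols mark the 12 genes whose cultures differed beyond counting noise. Srebf1 and Srebf2 ran from culture 1 (circles) on the left to culture 3 (triangles) on the right, Lss and Tm7sf2 had culture 1 on the right, and Insig1, Soat1 and Abcg1 stayed close to the line.

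Summed over the 18 enzymes, the cultures held 1677, 1690 and 1670 CPM, so enzyme transcripts as a whole were nearly level. The 6 control genes summed to 730, 773 and 845 CPM and the 6 transport genes to 866, 884 and 907 CPM. The control sum was carried by Srebf2 and Srebf1. All members together took 0.327% of the reads of culture 1, with a 95% Wilson interval of 0.325% to 0.329%. The share was 0.335% for culture 2 (0.333% to 0.337%) and 0.342% for culture 3 (0.340% to 0.344%). Reads carry no molecular identifiers, so the intervals cover counting error only.

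**Figure D4:**
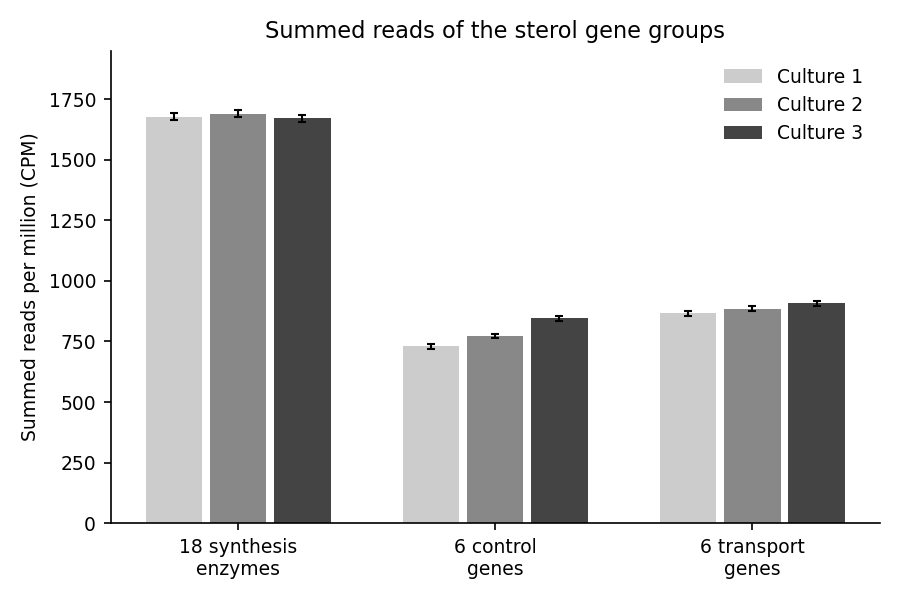
Summed CPM of the 18 synthesis enzymes, the 6 control genes and the 6 transport genes in cultures 1, 2 and 3. Error bars are 95% Wilson intervals for counting error. The enzyme sums lie between 1670 and 1690 CPM in the 3 cultures, while the control sum runs from 730 CPM in culture 1 to 845 CPM in culture 3.

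Cultures 1, 2 and 3 were the highest for 7, 7 and 16 of 30 members, against 41.5%, 27.3% and 31.2% of 10992 detected genes. Culture 1 was lowest with culture 3 highest for 14 of 30 (46.7%), against 20.0%. By role, culture 3 was highest for 6 of 18 enzymes, 5 of 6 control genes and 5 of 6 transport genes. With scaling by trimmed means culture 3 was highest for 17 members and this order held for 14, against 39.9% and 27.5% of detected genes. The median control gene in culture 3 lay 0.18 log2 units above the mean of the other cultures, and 0.20 and 0.19 with the scalings by trimmed means and by median ratios. On the rows as deposited, culture 3 was highest for 12 of 30 members, against 33.1% of detected genes, and for 7 of 18 enzymes, 3 of 6 control genes and 2 of 6 transport genes. The median control gene then lay 0.054 log2 units above the other cultures in culture 3, so the size of that difference rests on the join of the rows. For the enzymes the same median was -0.026 by column sums, 0.00080 with trimmed means and 0.023 on the rows as deposited, so no direction is given for them. Reads of the mitochondrial genome ran the other way, at 1.68%, 1.31% and 1.04% of cultures 1, 2 and 3; their part in the sterol values was not tested.

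Some members share a start region with a neighbour on the opposite strand. Mvk and Mmab, which codes for a cobalamin adenosyltransferase, start 209 bases apart on opposite strands. Mmab had 46.3, 42.9 and 42.5 CPM, highest in culture 1, where Mvk was lowest. Nsdhl and the centrin gene Cetn2 start 146 bases apart, and Cetn2 had 54.4 ± 0.473 CPM. Npc2 and Isca2, of iron-sulfur cluster assembly, start 99 bases apart, with Isca2 at 30.7 ± 1.03 CPM. Dhcr7 and Nadsyn1, of NAD synthesis, start 296 bases apart, with Nadsyn1 at 14.5 ± 1.06 CPM. The windows before Mvk, Nsdhl and Npc2 held 5, 2 and 2 CCAAT matches, and those close starts mean that a single stretch lies before both genes of the pair. The Npc2 window reaches into its GENCODE model, and the match at 6 to 2 bases lies inside that model. For Dhcr7, the windows that begin at chr7:143822917 and chr7:143823149, near the start shared with Nadsyn1, held 0 matches. Its 2 matches lay in the window that begins at chr7:143829964. Genes that overlap a member at another place were Akap9 for Cyp51 over 166 bases, at 134 ± 8.69 CPM, and Rai1 for Srebf1 over 109 bases, at 75.8 ± 3.47 CPM.

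Other genes of the pathway were taken from 5 further lists. All 8 genes of SREBP processing and sterol-regulated degradation were detected. Rnf145, a ubiquitin ligase that acts on SCAP, had 216, 219 and 210 CPM, with culture 3 lowest. Mbtps1 and Mbtps2, the proteases that release SREBPs, had means of 116 and 138 CPM.

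Farnesyl diphosphate also feeds non-sterol products. All 9 genes of that branch were detected. Nus1, a subunit of the dolichol-making prenyltransferase, led with 89.6, 96.1 and 94.6 CPM. Pggt1b, of protein geranylgeranylation, followed at 67.7, 75.1 and 73.5 CPM. Both were lowest in culture 1. The chi-square test called 3 of the 9, near the 32.7% of all genes tested, among them Pggt1b at an adjusted p of 0.00474.

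Of 8 genes of oxysterol synthesis and LXR receptors, 2 were detected. Nr1h2, which codes for LXR beta, had 71.6, 69.3 and 83.7 CPM, highest in culture 3, and its partner Rxrb had 75.6, 69.1 and 71.6 CPM. Both were called, at adjusted p-values of 6.45e-12 and 0.0255 by the chi-square test. Nr1h3, for LXR alpha, had 7, 4 and 7 reads, and Rxra had 0.967, 1.24 and 1.72 CPM, just below the detection rule in culture 1. No read was found in any culture for the oxysterol enzymes Ch25h and Cyp7b1, and Cyp27a1 and Cyp46a1 had 1 read each, in culture 3. Transcripts of LXR beta were thus measured and those of the 4 oxysterol enzymes were at or under the limit that a count of 0 allows.

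In the list of sterol transfer and esters, 11 of 12 genes were detected, and 6 of 11 tested were called, where 32.7% of all genes were. Lrp8, a lipoprotein receptor, had 162, 147 and 142 CPM, and Osbp, an oxysterol-binding protein, had 102, 105 and 102 CPM. Lrp8 was highest in culture 1, and Osbp was not called. Vldlr, a related receptor, had no read in any culture. Soat2, the other cholesterol acyltransferase, had 8.99, 6.43 and 6.99 CPM beside 10.4, 10.6 and 10.7 CPM for Soat1. The last list covered genes around acetyl-CoA. Acly, which makes cytosolic acetyl-CoA from citrate, had 541, 565 and 568 CPM, and Acss2, which makes it from acetate, had 189, 178 and 181 CPM. Acly was lowest in culture 1 and Acss2 highest there.

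The rows of the deposited table bear on all these values. For 0 of the 30 members did the row of the gene identifier carry the member's own symbol; the row of Hmgcs1, for example, carries the symbol Prdx1. Cultures 1 and 2 were read by the identifiers and culture 3 by the symbols and coordinates, a reading that rests on the most abundant genes. Over 548 genes of at least 300 CPM, cultures 1 and 2 differed by a median of 0.051 log2 units, culture 3 joined differed from them by 0.048, and culture 3 on the deposited rows by 0.15. At 10 to 100 CPM these medians were 0.068, 0.068 and 0.054, and at 100 to 300 CPM they were 0.051, 0.046 and 0.043. At those levels culture 3 thus lay closer to that mean on the deposited rows than joined. A mean of cultures varies less than a single culture, so the distance between cultures 1 and 2 is not a like measure. Over the 30 members the median distance of culture 3 from the mean of the others was 0.060 joined and 0.045 on the deposited rows. The largest values were 0.26 and 0.21. The values of the members thus do not settle which row culture 3 belongs to. On the deposited rows, Hmgcs1 had 358 CPM in culture 3 in place of 330 CPM.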

How the data were processed

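Polyadenylated RNA of 3 Ba/F3 cultures was made into strand-marked libraries and read as 50-base single ends, per the labels' protocols and the series' design text. HISAT2 alignment to GRCm38 and counting with GenSum are named in the design text, with the aligner and build also in the submitters' processing notes. No version, strand setting or treatment of multiple matches is given in the sources used here. Deposited values are log2(reads per 10000000 + 1), and the linear values were whole multiples of a single read for 100% of entries within a tolerance of 0.01. The authors' average was not used, since under the join used here it mixes genes.

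Culture 3 was joined to the other cultures through GENCODE M21: 54916 of 55486 rows by coordinates and 345 by symbol, with 225 unmatched. Totals were 32044889, 33880292 and 37180883 reads. CPM used column sums; TPM used the length of all exons or, added after the data were seen, of the longest coding transcript. The chi-square test against Poisson counting noise, with a threshold of 0.05 on the adjusted p, covered genes with a mean of at least 10 reads and was tested on simulated data. Deviations in the text are log2(CPM + 1) of a culture minus the mean of the others; the plot of spread uses the mean of all 3. Each of the 3 libraries comes from a separate culture, so spread includes culture and library. Trimmed-mean and median-ratio scaling were written in numpy 2.4.6 with pandas 2.3.3, scipy 1.17.1 and Python 3.11.15; figures used matplotlib 3.10.9.

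All 30 members are accounted for. Levels per culture are given for members of at least 10 CPM or with a highest culture 25% above the lowest, and also for Mylip; of each further list the 2 highest detected genes and the undetected ones are named, with other named genes chosen after their values were seen; some genes of these lists are not reported here. Neighbours overlap a member or start within 1000 bases of its start, with at least 1 CPM. The members, lists and tests were chosen with earlier results of these data known. Alternatives covered detection thresholds, both scalings, read minimums, pseudocounts, the rows as deposited and leaving out each culture.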

Additional observations from a re-analysis of the deposited data

How the results depend on the processing

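All 30 members stayed detected at 0.5 and 5 CPM, in at least 1 culture, under trimmed-mean scaling, on the rows as deposited and without each culture. The 12 members called by the chi-square test numbered 11 to 14 under other scalings, read minimums and the deposited rows, and 4 to 10 when a culture was left out, where all genes called fell from 32.7% to as little as 11.1%. Leaving out a culture leaves fewer libraries to compare. Of the calls of single members recomputed, 213 stayed on their side of the threshold, 21 were lost and 6 gained. The count of members with a highest culture at least 25% above the lowest was 1, rose to 2 with no minimum level, as Tm7sf2 then counted, and was 0 to 1 when a culture was left out and 0 on the rows as deposited, an alternative chosen after seeing the data. The median level of 66.2 CPM became 56.0 TPM by the longest transcript, a change of scale. The median deviation of the synthesis enzymes in culture 1, -0.00039 log2 units, became -0.026 with trimmed-mean and -0.027 with median-ratio scaling; in culture 3, -0.026 became 0.00080 with trimmed means and 0.021 over all members, and the cause was not tested. On the deposited rows the mean of Hmgcs1 was 344 CPM and that of Msmo1 178 CPM, 3 calls were lost (Mvk, Mvd and Npc2) and 2 gained (Hmgcs1, adjusted p 2.18e-06 by the chi-square test, and Msmo1, 0.031). No paired analysis was possible because the samples form 1 group. Depth limits the oxysterol enzymes, which had at most 1 read in any culture, and the precision of Tm7sf2 and Mylip.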
